A study of Mus musculus with 6 samples.

Results

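Long intergenic non-coding RNAs (lincRNAs) were followed in F9 cells, a mouse teratocarcinoma line that differentiates towards endoderm in retinoic acid (RA). They are the 265 rows of the deposited table with the gene type lincRNA and a mean of at least 10 normalised reads over the 6 libraries, without Meg3, Rian, Mirg and H19. The table holds 25904 rows, of which 1507 are lincRNAs, and 1331 of these have a read in a library. A normalised read is 1 read per 10000000 reads counted in genes, obtained by taking the authors' log2 values back to a linear scale. The members were chosen by this mean level, so their levels are given as a description, with no test. Just inside the threshold lay 2010015M23Rik (mean 10.1), 1700007L15Rik (10.2) and Gm12059 (10.4). Just outside lay Nlrc5 (9.98), 1110054M08Rik (9.97) and 1700086P04Rik (9.89).

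The study had 3 F9 lines, each expressing a short hairpin RNA against Ctbp2 (shCtbp2), the retinoid X receptor (shRxr) or GFP (shGFP, the control), and each left untreated (UT) or given 1 µM all-trans RA 48 hours before harvest. The medium of all groups contained 8% charcoal-stripped serum. Every group is 1 library, so the groups are shCtbp2_RA, shRxr_RA, shGFP_RA, shCtbp2_UT, shRxr_UT and shGFP_UT, and the labels name neither clones nor replicate cultures. The libraries held 9955808 to 13322506 gene reads. Ctbp2 stood at 55.4 and 210.1 normalised reads in shCtbp2_RA and shCtbp2_UT, against 701 and 1811 in shGFP_RA and shGFP_UT. Rxra stood at 82.4 and 73.7 in shRxr_RA and shRxr_UT, against 805 and 520.3 in shGFP_RA and shGFP_UT; the labels do not name the receptor gene that the hairpin targets. All 8 markers of pluripotent cells and all 8 of primitive and parietal endoderm were present. Of 5 fibroblast markers 4 have a row, with summed levels of 28.1 to 52.5 in RA and 52.7 to 143 untreated, and of 4 blood markers 2 have one, with 72.1 to 96.4 and 69.5 to 131. Of these genes Dcn and Ptprc had no read in 5 of the 6 libraries. Col1a1, Col1a2, Thy1 and Cd68 had reads in all 6. The blood sums were those of Cd68 alone, except in shRxr_UT, where Ptprc stood at 0.837. Thy1 was highest in shCtbp2_UT, at 130.7. Whether fibroblasts or blood cells were present was not tested.

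A lincRNA is a long transcript without a known protein product that lies between coding genes. Many are kept in the nucleus, some only carry small RNAs in their introns, and some are named for their presence in embryonic stem cells. RA acts through pairs of RA receptors and retinoid X receptors, which bind repeats of a short half-site on DNA, and Ctbp2 is a corepressor that is recruited by DNA-binding repressors. In bulk RNA fewer cells of a type and less RNA per cell cannot be told apart, and this holds for each value below.

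The label fits only part of the members. In the table's own mm9 coordinates 117 of the 265 overlap the span of a coding gene, 75 lie within 5 kb of one, 53 lie at 5 to 50 kb and 20 farther away. By Ensembl identifier 135 members have an entry in GENCODE M21, a later annotation: 52 are processed transcripts there, 38 lincRNAs, 23 antisense transcripts and 15 coding genes. Members that M21 types as coding include 1500011K16Rik (now Mtln), 2900053A13Rik (Pet100), Ttc28 and Tdrd5. The kit named in the labels does not mark strand and the counting mode is not given in the sources used here, so reads of a lincRNA and of a gene that overlaps it cannot be told apart. Most members carry provisional names, 132 ending in Rik and 101 starting with Gm.

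Most members were low. The median member had a mean of 25.1 normalised reads, 152 had at least 20 and 37 at least 100. Malat1, an abundant RNA of nuclear speckles, had the highest mean (7934). Next were Gm11019 (now Lncenc1, 1445), a transcript of embryonic stem cells, Tug1 (985), 1700020I14Rik (Oip5os1, also called Cyrano, 879), 2410006H16Rik (736), Snhg5 (563), Ttc28 (500.5), Snhg1 (500.1), 9430008C03Rik (Snhg17, 486) and Atp10d (448). Per kilobase of exon the order differed: 2410006H16Rik, with 462 bases of exon, had 1594 normalised reads per kb, against 1136 for Malat1, 438 for Gm11019 and 101 for Tug1. Ttc28 is a coding gene in GENCODE M21 and Atp10d a polymorphic pseudogene, so neither is a lincRNA there.

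The summed level of the 265 lincRNAs was lower in RA in all 3 lines. It stood at 14402 normalised reads in shCtbp2_RA, 25848 in shRxr_RA and 17518 in shGFP_RA, against 32699 in shCtbp2_UT, 32951 in shRxr_UT and 34936 in shGFP_UT. The RA libraries lay below every untreated one, and shRxr_RA was nearest to them. Malat1 alone held 1645, 7262 and 2886 of these in shCtbp2_RA, shRxr_RA and shGFP_RA, against 10726, 12055 and 13027 in the untreated libraries of the same lines. Without Malat1 the sums were 12757, 18586 and 14632 in RA, against 21973, 20897 and 21909 untreated. Against all reads counted in genes the 265 members took 0.144% to 0.258% in RA and 0.327% to 0.349% untreated.

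**Figure D1:**
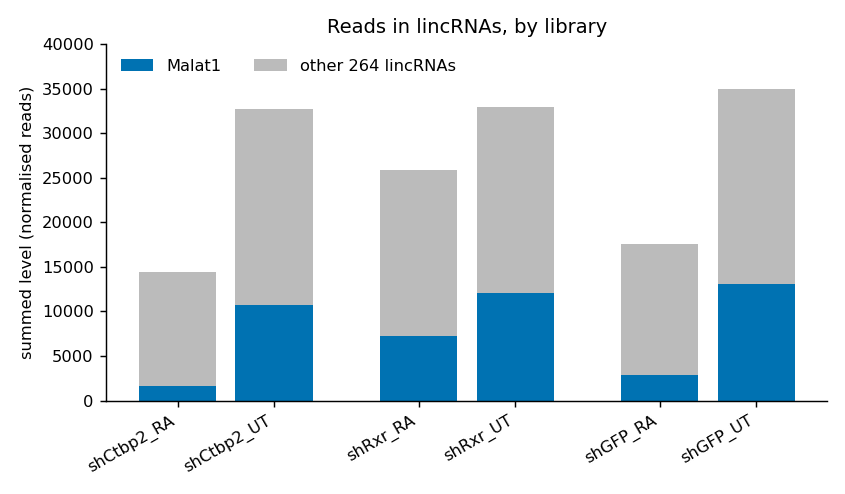
Summed level of the 265 lincRNAs in normalised reads for each library, 1 bar per library, with the part of Malat1 in blue and all other members in grey. The RA bars reach 14402 to 25848, all under the untreated bars at 32699 to 34936.

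With RA more lincRNAs fell than rose. Over all genes more rose than fell, but this order turned once values were corrected for GC and length (12% raised and 13.1% lowered of 13408 genes). A limma trend model with line and treatment as terms, fitted on 13499 genes with a mean of at least 10, used the 3 lines as replicates of the RA effect, with 2 residual and 12.4 prior degrees of freedom. It called 7 lincRNAs raised (2.64%, against 11.6% of all genes tested) and 49 lowered (18.5%, against 5.24%) at a Benjamini-Hochberg adjusted p under 0.05. The median log2 change, on the scale log2(value + 10) used for all log2 changes here, was -0.33 for the members and 0.07 for all genes. This scale understates the change of low genes, so members with a mean of 10 to 100 were set beside coding genes in the same range: of these 228 members 7 rose and 38 fell (3.07% and 16.7%), and of 3416 such coding genes 21.6% rose and 4.71% fell. Of all 12818 coding rows 12% rose and 4.92% fell. Rows typed as antisense had 9.21% raised and 9.21% lowered of 76, processed transcripts 6.25% and 9.38% of 32, and pseudogenes 3.75% and 3.75% of 240.

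The minimum on level was passed in different ways. Of the members 40 had a mean under 10 in RA and passed through the untreated libraries, and 14 passed through RA alone. Among the 211 members with a mean of at least 10 under both treatments 3 rose and 34 fell (1.4% and 16.1%). All genes were not counted under this stricter minimum, so these shares have no matching comparison. In 92 members the 3 RA libraries lay below the 3 untreated ones without overlap (34.7%, against 13.7% of all genes), and in 25 they lay above (9.4%, against 24.2%). All 7 raised members and 42 of the 49 lowered ones were among these.

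The number of calls depended on which libraries were used. Leaving out 1 library of a line also takes that line's other library out of the RA estimate. Either such fit therefore gave the same median change of the members: -0.24 for shCtbp2, -0.50 for shRxr and -0.35 for shGFP. Such a fit also has fewer residual degrees of freedom. Without shCtbp2_RA the model called 3 raised and 9 lowered members (all genes 5.49% and 1.8%). Without shCtbp2_UT it also called 3 and 9 (all genes 5.99% and 1.81%). Without shGFP_RA it called 2 and 7 (all genes 3.47% and 0.785%), and without shGFP_UT 2 and 9 (3.1% and 0.867%). Without shRxr_RA it called 8 and 80 (all genes 14.5% and 12%), and without shRxr_UT 8 and 81 (14.5% and 12%). The calls over all genes thus moved the same way. Miat, Malat1, C330046G13Rik, Gm11607, 9830144P21Rik, 2310043M15Rik, Gm15055 and Igf2as were called in every one of the 15 other settings in which they were tested. Each other call was lost in at least 1. Among the 15, the fits without a library form 1 pair per line and are not separate checks.

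Taken line by line, the most members passed 2-fold in shCtbp2 and the fewest in shRxr. With 1 library per group there is no test within a line, and members were counted at 2-fold or more. All counts at 2-fold, here and below, are on log2(value + 10), which passes fewer low members than the plain ratios of normalised reads given with intervals. In shCtbp2 7 members were at least 2-fold higher in RA and 84 lower (all genes 14.8% and 18.4%). In shRxr the counts were 3 and 9 (all genes 5.47% and 1.44%), and in shGFP they were 10 and 52 (all genes 13.8% and 6.97%). The median log2 change of the members was -0.63 in shCtbp2, -0.08 in shRxr and -0.39 in shGFP, beside 0.07, 0.09 and 0.12 for all genes. On that scale a change of at least 2-fold in all 3 lines was seen in 2 members upward and 6 downward (all genes 3.65% and 0.882%).

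**Figure D2:**
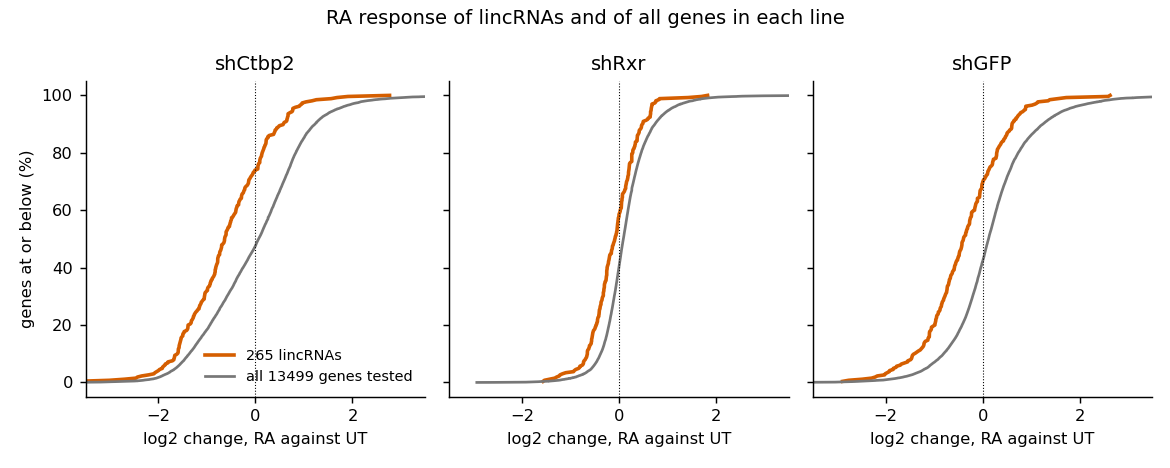
Cumulative share of genes (y axis, percent) by log2 change, RA against UT, on log2(value + 10) (x axis), for the 265 lincRNAs in orange and all 13499 genes tested in grey, 1 panel per line. The lincRNA curve lies left of the curve of all genes in each panel, with medians of -0.63, -0.08 and -0.39 in shCtbp2, shRxr and shGFP.

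The responses of the lines were compared over the members. Over the 265 members the RA change in shCtbp2 correlated with that in shGFP at Pearson r = 0.78, that in shRxr with shGFP at 0.68, and that in shCtbp2 with shRxr at 0.56. Each line has its own untreated library, but the members share libraries, depth and base composition, so these values describe the libraries. In 120 members (45.3%, against 19.9% of all genes) the change was below 0 in all 3 lines, and in 41 (15.5%, against 33.6%) it was above 0. Of the 49 lowered members 42 had their smallest change in shRxr. Over all genes, too, falls of at least 2-fold were fewest in shRxr (1.44%, against 18.4% in shCtbp2 and 6.97% in shGFP). How many of all lowered genes had their smallest change in shRxr was not counted. The lines differed little untreated and more in RA: the median range over the 3 lines was 0.38 on the log2 scale untreated and 0.75 in RA, beside 0.28 and 0.79 for all genes.

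Base composition moved with the libraries. For each library, the deviation of a gene's log2 value from its own mean over the 6 libraries was correlated with GC content. Deviations are relative, so those of 1 library depend on the others. Over the 219 members that have a GC value, the Spearman correlation was 0.37 in shCtbp2_RA, -0.22 in shRxr_RA and 0.21 in shGFP_RA. It was -0.24 to -0.18 in the untreated libraries. Over all genes it was 0.64 in shCtbp2_RA, -0.39 in shRxr_RA and 0.25 in shGFP_RA, against -0.42 to -0.38 untreated. Once values were corrected for GC and length, 6 members were raised and 59 lowered of the 219, against 7 and 39 of the same members without it; over all genes 12% were then raised and 13.1% lowered. Cell identity markers moved with RA too. Of 8 endoderm markers 7 were raised, with summed levels of 12239 to 22104 in RA and 6015 to 7697 untreated. Of 8 pluripotency markers 5 were lowered, with sums of 20529 to 47619 in RA and 51075 to 51932 untreated. In shCtbp2 Pou5f1 and Dppa5a were higher in RA, at 26185 and 8488, against 18524 and 4940 untreated. In shRxr and shGFP both were lower in RA, and the other listed pluripotency markers were lower in RA in every line. The part of base composition and of cell identity in the lincRNA changes was not tested.

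The strongest rise among the members was that of Gm15055 (ENSMUSG00000085412, mm9 chromosome 6, 52052948 to 52062531), now Halr1. It stood at 103 normalised reads in shCtbp2_RA, 213 in shRxr_RA and 131 in shGFP_RA, against 6.62 in shCtbp2_UT, 58.6 in shRxr_UT and 12.9 in shGFP_UT. The RA libraries lay above the untreated ones, and shRxr_UT was the highest of the untreated. The rise was 15.6-fold in shCtbp2 (95% counting interval 7.61 to 37.0), 3.63-fold in shRxr (2.76 to 4.83) and 10.2-fold in shGFP (6.10 to 18.2), and 2.36 on the log2 scale over the lines (SE 0.31, adjusted p 0.0002).

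Igf2as (Igf2os; chromosome 7, 149845598 to 149856261), transcribed antisense to the imprinted growth factor gene Igf2, rose by 2.03 (SE 0.29, adjusted p 0.00041). It stood at 24.7 in shCtbp2_RA, 46.2 in shRxr_RA and 74.3 in shGFP_RA, against 0.827, 5.86 and 4.03 in the untreated libraries of the same lines. Igf2 itself, which the row overlaps, rose by 3.23 and was also lowest in shCtbp2_RA, at 145 normalised reads against 574 in shRxr_RA and 1108 in shGFP_RA. Without strand, reads of this row and of Igf2 cannot be told apart.

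The other 5 raised members were low and close to the threshold of the test, with adjusted p-values of 0.024 to 0.047. A330009N23Rik (log2 change 1.07, SE 0.30) starts near the scaffold gene Grasp, on the opposite strand, and stood at 36.6, 23.1 and 31.5 in shCtbp2_RA, shRxr_RA and shGFP_RA, against 5.79, 13.4 and 8.86 in the untreated libraries. 5830418P13Rik (1.01, SE 0.28) was nearly equal in the 3 RA libraries, at 39.6, 38.2 and 36.8, against 10.8, 20.1 and 12.1 untreated. For 2610028E06Rik (1.00, SE 0.31) shCtbp2 was the exception: it stood at 23.8 in shCtbp2_RA and 19 in shCtbp2_UT, a 1.25-fold difference with an interval of 0.675 to 2.32. In shRxr and shGFP it was 3.8-fold (2.20 to 6.86) and 3.93-fold (2.17 to 7.62) higher in RA. Snord123 (0.97, SE 0.31), a row named for a small nucleolar RNA, and 2810468N07Rik (0.95, SE 0.31), now Cerox1, had their smallest difference in shRxr. Snord123 was 5.27-fold higher in shCtbp2 (1.95 to 17.8), 1.29-fold in shRxr (0.579 to 2.88) and 5.31-fold in shGFP (2.69 to 11.7). 2810468N07Rik was 2.79-fold higher in shCtbp2 (1.01 to 8.86), 1.68-fold in shRxr (0.826 to 3.5) and 8.08-fold in shGFP (3.47 to 23).

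**Figure D3:**
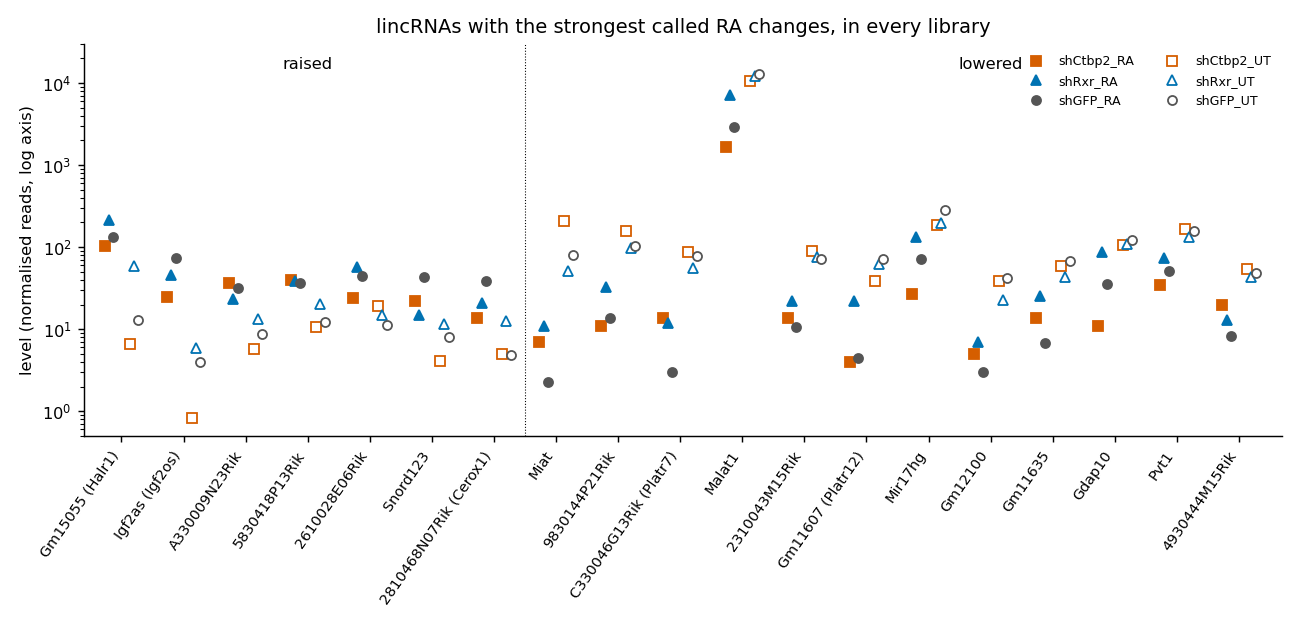
Levels in normalised reads (log axis) of the 7 raised and the 12 most strongly lowered lincRNAs in every library, with RA libraries as filled symbols left of the untreated ones as open symbols, squares for shCtbp2, triangles for shRxr and circles for shGFP. The filled symbols of a raised member lie above its open ones and those of a lowered member below them; Gm15055 reaches 213 in shRxr_RA and Miat falls to 2.25 in shGFP_RA.

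Miat (ENSMUSG00000086878, chromosome 5, 112642248 to 112657968), a nuclear RNA also called Gomafu, had the strongest fall. It stood at 6.93 normalised reads in shCtbp2_RA, 11.0 in shRxr_RA and 2.25 in shGFP_RA, against 208 in shCtbp2_UT, 51.1 in shRxr_UT and 80.5 in shGFP_UT. The fall was 30.1-fold in shCtbp2 (14.4 to 75.6), 4.62-fold in shRxr (2.41 to 9.74) and 35.8-fold in shGFP (11.9 to 176), where 3 reads were left. Its log2 change over the lines was -2.70 (SE 0.36, adjusted p 0.00024). Malat1 (ENSMUSG00000092341, chromosome 19, 5795690 to 5802671) fell by 1.87 (SE 0.34, adjusted p 0.0019). Its counting error is small, with 1662 to 16175 reads per library, and its fall was 6.52-fold in shCtbp2 (6.20 to 6.87), 1.66-fold in shRxr (1.61 to 1.71) and 4.51-fold in shGFP (4.36 to 4.68). The intervals of the 3 lines do not overlap, but they hold counting error alone.

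C330046G13Rik (chromosome 10, 84010162 to 84016083) and Gm11607 (chromosome 1, 63246887 to 63254188) are now Platr7 and Platr12, of the pluripotency-associated transcripts named from mouse embryonic stem cells. C330046G13Rik stood at 13.9, 12.1 and 3.0 in shCtbp2_RA, shRxr_RA and shGFP_RA, against 87.7, 55.2 and 78.1 in shCtbp2_UT, shRxr_UT and shGFP_UT, and fell by 2.12 (SE 0.31, adjusted p 0.00042). Gm11607 stood at 3.96, 22.1 and 4.50 in RA against 38.9, 61.9 and 70.9 untreated, and fell by 1.82 (SE 0.31, adjusted p 0.0013). All 11 members with a Platr name had a change below 0, and 4 of them fell: beside these, Gm14136 (Platr15) by 1.23 and C330013F16Rik (Platr21) by 1.07. The median of the 11 was -0.89, beside -0.33 for all 265 members and 0.07 for all genes. The family was completed from later names after values had been seen. Gm14136 differed between the lines, at 55.4, 161 and 57.8 in shCtbp2_RA, shRxr_RA and shGFP_RA, against 197, 175 and 247 untreated.

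Promoters are shown for Gm15055, Miat and C330046G13Rik, which changed strongly, and for 2610028E06Rik, chosen after the motif search as the one raised member with a half-site in its window. They are RefSeq windows of 250 bases before to 50 after a start on GRCm38.p6, which is not the build of the table. Capitals mark retinoid half-sites, searched on both strands as AGGTCA and as its variants with G first (GGGTCA), with T in the middle (AGTTCA) and with both changes (GGTTCA). Gm15055 and Miat have none, so their windows are in lower case; 2610028E06Rik has 2 and C330046G13Rik has 1, read on the other strand. The windows lie at chr6:52102699-52102998 on the plus strand for Gm15055, and on the minus strand at chr4:125922354-125922653 for 2610028E06Rik, chr5:112228899-112229198 for Miat and chr10:84553289-84553588 for C330046G13Rik.
Gm15055: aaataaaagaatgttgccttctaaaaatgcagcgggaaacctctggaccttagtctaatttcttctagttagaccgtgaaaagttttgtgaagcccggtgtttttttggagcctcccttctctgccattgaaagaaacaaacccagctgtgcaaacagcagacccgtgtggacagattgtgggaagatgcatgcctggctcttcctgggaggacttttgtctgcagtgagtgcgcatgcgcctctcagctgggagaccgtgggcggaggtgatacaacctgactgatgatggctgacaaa
2610028E06Rik: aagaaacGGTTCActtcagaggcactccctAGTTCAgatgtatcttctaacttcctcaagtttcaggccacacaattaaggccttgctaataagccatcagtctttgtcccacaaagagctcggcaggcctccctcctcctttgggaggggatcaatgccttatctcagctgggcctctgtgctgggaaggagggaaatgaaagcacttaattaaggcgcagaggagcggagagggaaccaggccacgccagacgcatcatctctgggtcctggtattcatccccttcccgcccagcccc
Miat: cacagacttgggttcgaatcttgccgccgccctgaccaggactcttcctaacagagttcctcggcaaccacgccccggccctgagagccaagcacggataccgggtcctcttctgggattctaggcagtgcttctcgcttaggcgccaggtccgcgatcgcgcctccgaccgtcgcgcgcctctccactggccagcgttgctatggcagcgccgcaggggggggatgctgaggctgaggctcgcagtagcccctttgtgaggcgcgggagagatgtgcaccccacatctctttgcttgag
C330046G13Rik: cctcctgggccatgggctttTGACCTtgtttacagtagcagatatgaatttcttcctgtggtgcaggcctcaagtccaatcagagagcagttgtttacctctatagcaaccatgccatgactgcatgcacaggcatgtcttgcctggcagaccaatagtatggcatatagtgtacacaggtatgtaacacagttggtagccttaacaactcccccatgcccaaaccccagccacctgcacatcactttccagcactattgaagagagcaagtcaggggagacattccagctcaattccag

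Of the members 147 have at least 1 of 171 such windows. Since windows of 1 gene can overlap, genes with a half-site in any window were counted: 51 of the 147 members (34.7%), against 46.9% of all 27025 genes of the RefSeq table. Among raised members it was 1 of 4, and among lowered ones 11 of 24 (45.8%). A direct repeat of 2 half-sites with a spacer of 1, 2 or 5 bases occurs in 0.58% of the member windows, which is 1 window, and in 0.59% of all. A match describes letters in this window only.

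All the listed host transcripts of small RNAs that are members had log2 changes below 0 in RA. Of the 29 listed hosts 12 are members, of which 4 fell and 0 rose. Their median change was -0.64, beside -0.33 for all 265 members and 0.07 for all genes. Most of these hosts had a mean of at least 100, and members at that level had a median of -0.75, with 29.7% lowered. Of all genes, at any level, 5.24% were lowered. Snord123, a raised member named for a small nucleolar RNA, was not on the list. Mir17hg (chromosome 14, 115442101 to 115445949) carries the miR-17-92 cluster, known for its role in proliferation. It stood at 26.7 in shCtbp2_RA, 133 in shRxr_RA and 72.1 in shGFP_RA, against 188, 195 and 284 in shCtbp2_UT, shRxr_UT and shGFP_UT, and fell by 1.60 (SE 0.35, adjusted p 0.0068). The RA libraries lay below the untreated ones, with shRxr_RA nearest to them. The libraries measured the host, not the mature microRNAs, whose sequences from RefSeq show what the transcript carries, with the seed (bases 2 to 8) in capitals; miR-17-5p and miR-20a-5p share a seed, and so do miR-19a-3p and miR-19b-3p.
mmu-miR-17-5p: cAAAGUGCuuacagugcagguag
mmu-miR-20a-5p: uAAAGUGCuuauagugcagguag
mmu-miR-18a-5p: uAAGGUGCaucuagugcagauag
mmu-miR-19a-3p: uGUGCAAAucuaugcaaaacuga
mmu-miR-19b-3p: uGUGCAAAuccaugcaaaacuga
mmu-miR-92a-3p: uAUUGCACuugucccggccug

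A930011O12Rik (Mir124a-1hg), the host of a microRNA of neurons, stood at 116, 368 and 210.2 in shCtbp2_RA, shRxr_RA and shGFP_RA, against 364, 579 and 501 untreated. It fell by 1.14 (SE 0.29, adjusted p 0.014), although shRxr_RA lay above shCtbp2_UT. The snoRNA hosts Snhg5 and Snhg1 fell by 0.95 (SE 0.28, adjusted p 0.031) and 0.90 (SE 0.28, adjusted p 0.039). Snhg5 had 314, 502 and 344 normalised reads in shCtbp2_RA, shRxr_RA and shGFP_RA, against 787, 684 and 747 untreated. Snhg1 had 265, 485 and 306 in RA, against 593, 630.2 and 721 untreated. The hosts that were not called ranged from -0.76 for Snhg4 (adjusted p 0.084) to -0.16 for Gm11974, now Snhg15 (adjusted p 0.73). Slc3a2, whose start faces that of Snhg1, had a log2 change of 0.26 (adjusted p 0.53).

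Of 13 listed RNAs of nuclear bodies and housekeeping 6 are members, and all had changes below 0. Their median was -0.95, beside -0.33 for all 265 members. Only Malat1 and Miat were called among these 6. Tug1 had a log2 change of -0.97 (SE 0.33, adjusted p 0.056) and 6720401G13Rik, now Firre, an X-linked RNA of nuclear architecture, of -0.93 (SE 0.31, adjusted p 0.052). In shRxr Tug1 was level, at 1063 in shRxr_RA and 1052 in shRxr_UT (1.01-fold, 0.930 to 1.10), while it was 3.85-fold lower in shCtbp2 (3.44 to 4.31) and 2.04-fold lower in shGFP (1.88 to 2.22). 1700020I14Rik (Oip5os1), known for triggering the decay of a microRNA, showed the same split: it was 3.14-fold lower in shCtbp2 (2.78 to 3.55), 1.18-fold higher in shRxr (1.09 to 1.27) and 1.85-fold lower in shGFP (1.69 to 2.02). For Tug1 shRxr_RA lay just above shRxr_UT and below the other untreated libraries, and for 1700020I14Rik it lay above all untreated ones, so the treatments overlap for both.

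Of 35 listed pluripotency and lineage lincRNAs 8 are members, of which 1 rose (Gm15055) and 2 fell. Their median was -0.59, beside -0.33 for all 265 members, and 3 of the 8 also carry a Platr name. Gm11019 (Lncenc1) stood at 977 in shCtbp2_RA, 1203 in shRxr_RA and 926 in shGFP_RA, against 2023, 1744 and 1794 in the untreated libraries, and fell by 0.84 (SE 0.26, adjusted p 0.038). Pvt1 (chromosome 15, 61869542 to 62209651), the long RNA downstream of Myc, stood at 34.6, 74.3 and 51.0 in RA against 165, 132 and 156 untreated, and fell by 1.39 (SE 0.31, adjusted p 0.0077). Myc, at 123, 226 and 209 in shCtbp2_RA, shRxr_RA and shGFP_RA against 370, 434 and 533 untreated, fell by 1.25 (SE 0.28, adjusted p 0.0073). Neither 2810011L19Rik (Tunar), an RNA of neural differentiation, nor Gm16197 (Trp53cor1, or lincRNA-p21) was called, with changes of 0.16 (adjusted p 0.73) and -0.14 (adjusted p 0.77). Lists of X inactivation centre RNAs and of imprinted non-coding RNAs held no member.

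**Figure D4:**
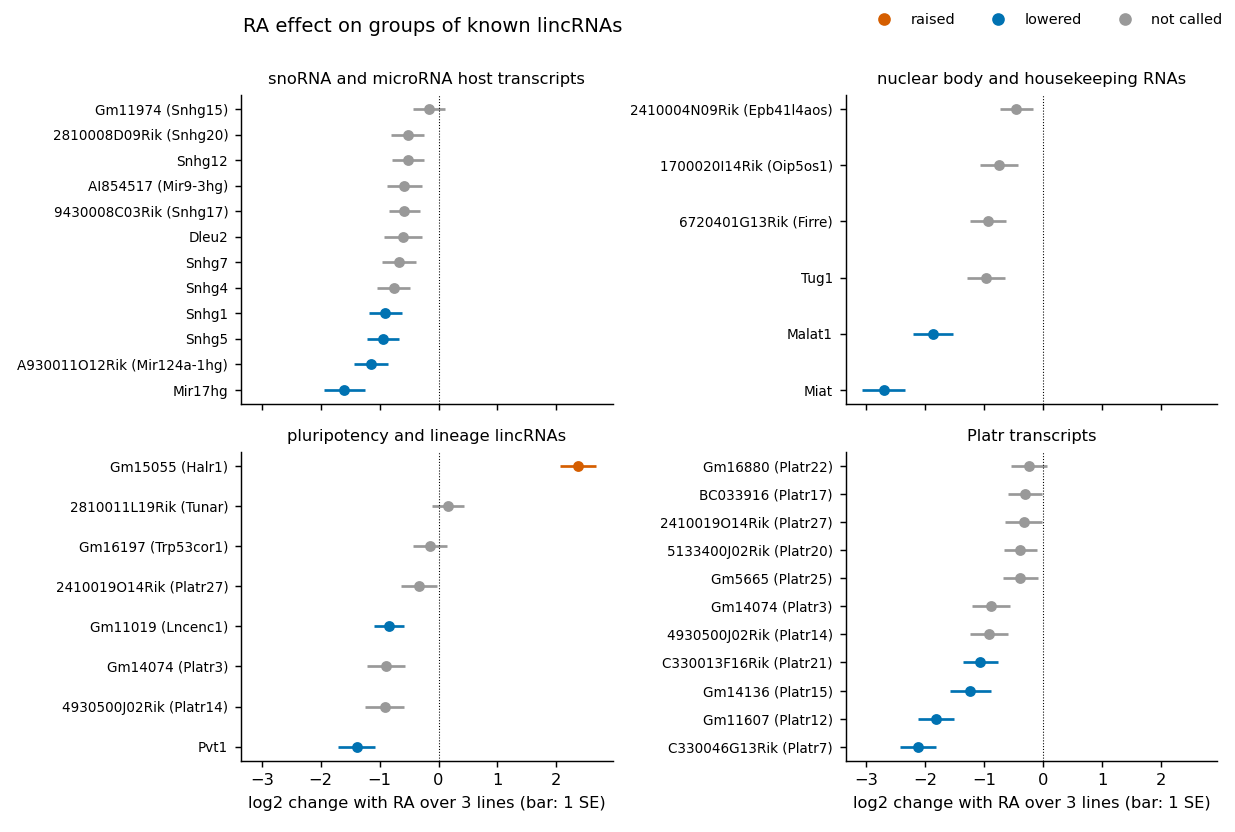
Log2 change with RA over the 3 lines (x axis, bars of 1 SE) for each member of 3 lists and of the Platr family, with raised members in orange, lowered ones in blue and members not called in grey. Gm15055 (Halr1) is the one member on these panels that was raised, at 2.36, and all 12 host transcripts lie below 0.

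The remaining strongly lowered members are little described. 2310043M15Rik (log2 change -1.83, SE 0.29, adjusted p 0.00079) stood at 13.9, 22.1 and 10.5 in shCtbp2_RA, shRxr_RA and shGFP_RA, against 90.2, 76.2 and 72.5 untreated, and it lies within the coding gene Dopey2, whose change was 0.80 (adjusted p 0.070). 9830144P21Rik (-2.21, SE 0.34, adjusted p 0.00059) stood at 10.9, 33.1 and 13.5 in RA against 158, 97.9 and 105 untreated. It overlaps the phosphate transporter gene Slc20a1 on the opposite strand, which fell by 1.90 (SE 0.27, adjusted p 0.00035). Gdap10 (-1.43, SE 0.37) overlaps Nampt, an enzyme of NAD synthesis, which fell by 1.13. Gm12100 (-1.55, SE 0.30), Gm11635 (-1.45, SE 0.33) and 4930444M15Rik (-1.34, SE 0.29) had 3.0 to 25.1 normalised reads in the RA libraries and 22.6 to 67.7 untreated.

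Changes of lincRNAs were set beside those of their nearest coding genes. Over 227 members whose nearest coding gene was tested, the RA log2 changes of the pair correlated at Pearson r = 0.54 (Spearman 0.47), and over 9825 pairs of a coding gene and its nearest coding gene at 0.26. The pairs share libraries, and overlapping rows can share reads. For the 128 members that do not overlap their neighbour r was 0.56, and for 42 members at 5 to 50 kb it was 0.67, beside 0.25 and 0.24 for coding pairs. For 14 members over 50 kb away it was -0.21. The neighbour was lowered for 9 of the 39 lowered members with a tested neighbour and raised for 0; it was raised for 3 of the 5 raised ones. Over all 227 pairs 17 neighbours were lowered and 13 raised. The median change of the neighbours was -0.04, beside -0.33 for the members.

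**Figure D5:**
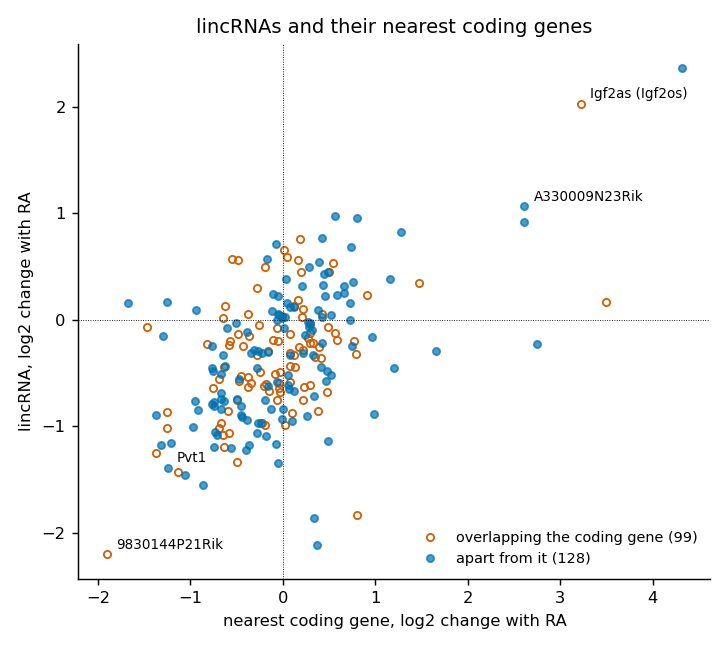
Log2 change with RA over the lines of 227 lincRNAs (y axis) against that of their nearest coding gene (x axis), with open orange circles for 99 members that overlap the coding gene and filled blue circles for 128 that do not. Igf2as (2.03, beside 3.23 for Igf2) lies at the upper right and 9830144P21Rik (-2.21, beside -1.90 for Slc20a1) at the lower left, while 2310043M15Rik (-1.83) lies low beside a neighbour above 0 (0.80 for Dopey2).

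The members were also counted by their orientation to the nearest coding gene. Of 61 members whose start lies within 2 kb of a coding gene's start on the opposite strand, 3 rose and 4 fell (6.6% lowered), with a median of -0.04. Of 62 on the same strand as the nearest coding gene 0 rose and 19 fell (30.6%), with a median of -0.58, and of 92 in other opposite-strand arrangements 4 rose and 16 fell (17.4%, median -0.32). For the other 50 members the strand of the member or of its neighbour was not matched; 0 of them rose and 10 fell (20%, median -0.58). Members that M21 calls coding had 1 of 15 lowered and a median of 0.16, and those it calls lincRNAs had 10 of 38 lowered and a median of -0.49. These classes were formed after values had been seen and their difference was not tested.

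Neither knock-down changed a lincRNA past the threshold over both treatments. For shCtbp2 against shGFP limma called 0 members raised and 0 lowered (all genes 0.111% and 0.0593%). At an unadjusted p under 0.05 there were 1 and 9 members, beside 352 and 914 of all 13499 genes. Without shCtbp2_UT the median change of the members was -0.40 (all genes -0.19), and without shCtbp2_RA it was 0.04 (all genes -0.03). For shRxr against shGFP limma also called 0 and 0 (all genes 0.0% and 0.00741%). Unadjusted there were 3 and 0 members, beside 88 and 101 of all genes. The median of the members for shRxr was 0.30 without shRxr_UT (all genes -0.05) and -0.11 without shRxr_RA (all genes -0.02). Both comparisons use the same shGFP libraries, and differences between lines in RA response are part of their error. With voom weights on the recovered reads the calls were 0 in each case (all genes 0.104% and 0.0519% for shCtbp2, 0% and 0.00741% for shRxr). Unadjusted there were 2 and 8 members for shCtbp2 and 2 and 0 for shRxr, with all genes not counted. Without shRxr_RA, and likewise without shRxr_UT, limma called 2 members lowered for shCtbp2 (all genes 1.76% and 1.78%). Either fit takes the shRxr line out of this comparison, so they are not separate results.

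Counted at 2-fold on log2(value + 10), the knock-down lines differed from shGFP in more lincRNAs in RA than untreated. In RA 2 members were higher and 21 lower in shCtbp2 than in shGFP (all genes 3.13% and 14.6%), and untreated 2 were higher and 3 lower (all genes 1.47% and 2.28%). For shRxr 20 were higher and 2 lower in RA (all genes 3.55% and 2.76%), and 2 higher and 1 lower untreated (all genes 0.378% and 0.0741%). At both treatments 0 members were higher and 1 lower in shCtbp2 (all genes 0.563% and 1.18%), and 1 was higher and 0 lower in shRxr (all genes 0.037% and 0.00741%). Set against each other, shCtbp2_RA had 1 member higher and 61 lower than shRxr_RA (all genes 5.67% and 21.2%), and shCtbp2_UT had 4 higher and 5 lower than shRxr_UT (all genes 1.84% and 3.53%). B230354K17Rik stood at 82.2 normalised reads in shCtbp2_RA and 456 in shRxr_RA, and Gdap10 at 10.9 and 87.4.

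The members lower in shCtbp2 at both treatments were led by A030009H04Rik (now the coding gene Rnf227). It stood at 41.6 in shCtbp2_RA against 103 in shGFP_RA and at 22.3 in shCtbp2_UT against 87.8 in shGFP_UT, 2.47-fold lower in RA (1.74 to 3.58) and 3.93-fold lower untreated (2.56 to 6.23). Its limma change was -1.36 (SE 0.36, adjusted p 0.16). The nearest coding gene Chd3, on the opposite strand, was also low there, at 229 in shCtbp2_RA and 142 in shCtbp2_UT, against 971 in shGFP_RA and 415 in shGFP_UT. 4933431E20Rik had 2 and 3 reads in shCtbp2_RA and shCtbp2_UT, against 35 and 15 in shGFP_RA and shGFP_UT, and its overlapping neighbour Gstm5, a glutathione transferase gene, stood at 82.2 and 9.10 normalised reads in shCtbp2 against 149 and 48.3 in shGFP. Foxl2os, which starts beside the transcription factor gene Foxl2, was 4.17-fold lower in RA (2.11 to 9.18) and 5.84-fold lower untreated (1.30 to 53.7). Gm17630, R74862, Tdrd5, 2900056M20Rik (Kantr) and Gm17692 were 1.96-fold to 2.69-fold lower in RA and 1.80-fold to 3.41-fold lower untreated.

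Members higher in shCtbp2 at both treatments were led by Gm13073, at 20.8 in shCtbp2_RA against 3.0 in shGFP_RA and 18.2 in shCtbp2_UT against 5.64 in shGFP_UT. That is 6.92-fold in RA (2.34 to 27.7) and 3.23-fold untreated (1.33 to 8.95), with a limma change of 1.05 (SE 0.33, adjusted p 0.25). 1810058I24Rik has enough reads for a narrow interval, 1.58-fold higher in RA (1.41 to 1.77) and 1.41-fold untreated (1.21 to 1.63). Miat was 2.59-fold higher in shCtbp2_UT than in shGFP_UT (2.05 to 3.30), and in RA, with 7 and 3 reads, the ratio was 3.08 (0.702 to 18.4). Gm16065 (Tbx3os2), Gm14267, 4930461G14Rik, AI662270 and 2810410L24Rik were 1.45-fold to 2.78-fold higher in RA and 1.58-fold to 1.97-fold untreated.

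In shRxr the member with the largest difference at both treatments was 1110002J07Rik (chromosome 10, 66375237 to 66383006). It stood at 154 in shRxr_RA against 60.8 in shGFP_RA and at 120 in shRxr_UT against 32.2 in shGFP_UT, 2.53-fold higher in RA (1.92 to 3.35) and 3.72-fold untreated (2.60 to 5.42). Its limma change was 1.41 (SE 0.36, unadjusted p 0.0014, adjusted p 1.0), the lowest unadjusted p of a member for this knock-down. Gm15055 was 1.62-fold higher in shRxr_RA than in shGFP_RA (1.32 to 1.99) and 4.55-fold higher untreated (2.61 to 8.39). Gm16601, Gm807, Gm16065, 2610020C07Rik, Gm17638 and Gm17254 were 1.55-fold to 3.70-fold higher in RA and 1.34-fold to 1.73-fold untreated. Among the 8 members with the largest difference downward at both treatments 4933404O12Rik has the most reads and was 1.25-fold lower at each treatment (1.03 to 1.53 in RA, 1.07 to 1.46 untreated); Gm17284, 2500004C02Rik, Tdrd5, Gm15545, BC029722, 4933431E20Rik and 4930556M19Rik (a symbol that other rows share) were 1.38-fold to 2.35-fold lower in RA and 1.31-fold to 2.25-fold untreated.

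The RA response of each knock-down line was set against that of shGFP. Relative to shGFP the response of shCtbp2 was at least 2-fold more positive in 3 members and more negative in 25 (all genes 2.79% and 12.3%). This split was 6 and 7 under upper-quartile scaling, 5 and 17 under scaling by the median of ratios, and 8 and 11 of 219 members once values were corrected for GC and length. The response of shRxr was at least 2-fold more positive than that of shGFP in 33 members and more negative in 6 (all genes 5.47% and 4.8%), and in 15 and 3 of 219 members after that correction. With a pseudocount of 1 or 50 in place of 10 the shRxr counts were 60 and 16 or 8 and 0, and the shCtbp2 counts 17 and 67 or 0 and 0. With 1 library per group these differences have no test, and both rest on the shGFP libraries.

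In shRxr the members with the most positive difference kept a level in RA near their untreated one. Gm16211 stood at 60.3 in shRxr_RA and 46.0 in shRxr_UT, against 11.3 in shGFP_RA and 66.0 in shGFP_UT. Gm14136 (Platr15) was 1.09-fold lower in RA in shRxr (0.882 to 1.35) and 4.28-fold lower in shGFP (3.32 to 5.57). B230354K17Rik was 1.34-fold higher in RA in shRxr (1.17 to 1.53) and 2.48-fold lower in shGFP (2.13 to 2.91). Gm10060, whose symbol also stands on another row, was 1.12-fold lower in shRxr (0.924 to 1.35) and 4.32-fold lower in shGFP (3.30 to 5.74). At the other end lay Snord123 and 2810468N07Rik, given above, 4930481B07Rik, which was 1.67-fold lower in shRxr (0.965 to 2.96) and 1.72-fold higher in shGFP (1.11 to 2.72), and 1810019D21Rik, which was 2.08-fold lower (0.764 to 6.55) and 1.92-fold higher (1.03 to 3.74).

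In shCtbp2 the most positive difference was that of Gm17322, near the steroid enzyme gene Cyp11a1. It stood at 102 in shCtbp2_RA and 19.9 in shCtbp2_UT, against 78.8 in shGFP_RA and 62.0 in shGFP_UT, 5.14-fold higher in RA in shCtbp2 (3.27 to 8.38) and 1.27-fold in shGFP (0.938 to 1.73). C330002G04Rik, B230206L02Rik and 4930566F21Rik came next, with differences of 1.13, 1.04 and 0.93 on the log2 scale. The most negative differences were those of 2900076A07Rik (-1.54), 2500004C02Rik (-1.48), Dleu2 (-1.27), the host of miR-15a and miR-16-1, and Gm16601 (-1.24). Dleu2 was 5.12-fold lower in RA in shCtbp2 (2.40 to 12.5) and 1.29-fold lower in shGFP (0.682 to 2.46).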

How the data were processed

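RNA of 6 libraries of F9 cells was sequenced, 1 per line and treatment. Per the submitters' processing notes TopHat 1.4 and HTSeq were used with mm9. The authors deposited log2 values per gene, which are log2 of reads scaled to 10000000 per library plus 1; 100% of the unlogged values gave whole reads within 1e-06. Lines were used as replicates. The labels name no separate cultures, so p-values measure the spread between these libraries, which may be technical. With 1 library per group the 2 residual degrees of freedom also hold differences between lines in RA response. Such differences therefore enter the error of the RA calls and of both knock-down comparisons.

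The RA effect and both knock-down effects were fitted with limma 3.58.1 in R 4.3.3, on log2(value + 10) with line and treatment as terms and a trended prior, over 13499 genes with a mean of at least 10, with Benjamini-Hochberg adjustment at 0.05. Within a line there is no test: ratios carry exact Clopper-Pearson 95% intervals, which cover counting error only, and 3 reads are worth 2.25 to 3.01 normalised reads. Sequences and later names come from RefSeq (GRCm38.p6) and GENCODE M21; 219 of the 265 members (82.6%) have a GC content and length. Fits were tested on simulated counts with the same RA effect in every line and no shift with GC content. Such counts lack the differences between lines and in base composition seen here, so they do not show how the fits handle them.

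Alternatives were pseudocounts of 1 and 50, a minimum mean of 20 or none, 2 other scalings, a GC content and length correction, voom weights, a fit without the line term, and each library left out. Members, lists and tests were chosen with earlier results of these data known. Named members are the 10 highest in level, up to 12 raised and 12 lowered by log2 change, 8 highest and 8 lowest per knock-down by the smaller of the differences at each treatment, 4 most positive and 4 most negative per difference in RA response, and members of the lists.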

Additional observations from a re-analysis of the deposited data

Results flagged for a closer look

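In 4 members the RA response went opposite ways in different lines, by at least 1.5-fold with a counting interval that leaves out 1 on each side. The difference between lines was not tested, since each group is 1 library. 2500004C02Rik was 3.62-fold lower in RA in shCtbp2 (1.46 to 10.8) and 2.06-fold higher in shRxr (1.02 to 4.30), and 1.61-fold higher in shGFP (0.974 to 2.72). 2900076A07Rik was 2.06-fold lower in RA in shCtbp2 (1.10 to 4.04) and 2.17-fold higher in shGFP (1.33 to 3.67), with 1.20-fold higher in shRxr (0.729 to 1.97). AI662270 was 2.0-fold lower in shCtbp2 (1.21 to 3.41) and 1.89-fold lower in shGFP (1.01 to 3.66), and 1.75-fold higher in shRxr (1.04 to 3.01). E230016M11Rik was 5.85-fold lower in shCtbp2 (1.34 to 53.0), on 2 reads in shCtbp2_RA and 14 in shCtbp2_UT, and 2.24-fold higher in shRxr (1.16 to 4.51), with 1.29-fold higher in shGFP (0.598 to 2.86).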

How the results depend on the processing

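The number of RA calls moved with several settings. Raised members numbered 3 with a minimum mean of 20 (all genes 10.8%) and 2 without a minimum (5.22%). They numbered 4 without the line as a replicate block (all genes 7.2%) and 2 to 8 with a library left out (3.1% to 14.5%). Lowered members numbered 18 without a minimum (all genes 2.01%), 22 without the block (2.06%) and 7 to 81 with a library left out (0.785% to 12%). For shCtbp2 2 members were lowered with either shRxr library left out (all genes 1.76% and 1.78%). The samples share no replicate number beyond 1 per group, so the line is the only block. Over the 56 called members and all settings 539 values kept their call, 276 lost it and 0 turned their direction. The settings without a library leave out each line through either of its libraries, so these values are not independent. The cause was not tested.

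Counts at 2-fold moved with the pseudocount. With a pseudocount of 1 and of 50, shCtbp2 had 18 and 2 members higher and 128 and 25 lower, shRxr 13 and 1 higher and 18 and 0 lower, and shGFP 22 and 2 higher and 81 and 18 lower. For the difference in RA response these were 17 and 0 higher and 67 and 0 lower in shCtbp2, and 60 and 8 higher and 16 and 0 lower in shRxr. With the correction for GC and length, over 219 members, 55 were lower in shCtbp2 and 6 higher in shGFP, the difference for shCtbp2 was 8 higher and 11 lower, and that for shRxr 15 and 3. Upper-quartile scaling gave 6 and 7 for the shCtbp2 difference, and median-of-ratios scaling 5 higher.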

Other observations

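By level, of 37 members with a mean of at least 100, 11 fell in RA and 0 rose, with a median log2 change of -0.75. Of 228 with a mean of 10 to 100, 38 fell and 7 rose, with a median of -0.29. Coding genes with a mean of at least 100 were not counted apart. Over all 12818 coding rows, at any level, 4.92% fell and 12% rose. Members without a GENCODE M21 entry by identifier had 29 of 130 lowered and a median of -0.51, against 20 of 135 and -0.24 for those with one. The motif CACGTG occurred in a promoter window of 12.9% of the 147 members that have one and of 8.09% of all genes, and ATGCAAAT of 3.4% and 1.97%. These are descriptions of classes formed after values had been seen, with no test.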
